A study of Mus musculus with 4 samples.

Results

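The sites described here are autosomal CCGG positions of the mouse genome whose sequencing tags were partly divided among several positions, and which had few other CCGG positions nearby. A site was taken when its deposited tag sum was not a whole number, by more than 1e-06, in at least 1 of 4 libraries, and when 1 to 4 CCGG lay within 500 bp on either side, the site itself included. The rule held 35562 sites, 2.87% of the 1238721 autosomal sites with that spacing and 2.23% of the 1594137 sites in the files. They are called shared-tag sites here. The other 1203159 autosomal sites of the same spacing, with whole tags in all 4 libraries, are called whole-tag sites and served as the comparison, weighted so that the number of CCGG in the window and the MspI tags matched those of the shared-tag sites.

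The cells were MC1-ZE7, a mouse embryonic stem cell line of strain 129S6/SvEvTac at passage 31, cultured without feeders in serum and LIF. It carries the fluorescent protein Emerald under the promoter of Zscan4c, so both groups share the reporter, and the sort reads the activity of that promoter in 1 line. Emerald-high and Emerald-negative cells were separated by flow sorting, and DNA of each was cut with HpaII and with MspI, giving 1 library for each of the 4 combinations. The spread between cultures or between sorts therefore cannot be measured. The library totals were 5662614 tags for Emerald-high HpaII, 9372711 for Emerald-high MspI, 9535691 for Emerald-negative HpaII and 9307616 for Emerald-negative MspI.

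HpaII cuts CCGG only where the central CG is unmethylated, and MspI cuts it in either state, so the MspI tags serve as the yardstick for how often a position can be read at all. In this assay, HELP tagging, a short tag is read from each side of the cut. Interspersed and tandem repeats make up much of the mouse genome and are mostly methylated in differentiated cells, and a tag from a repeat can match many places equally well. Zscan4 genes are active in the 2-cell embryo and in a small, changing part of an embryonic stem cell culture, a state known for active endogenous retroviruses and for loss of DNA methylation.

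The fractional tags in the files had the arithmetic of tags divided evenly among positions. Taking the 2 flanks of each site apart, 99.2% of the 103625 fractional flank values became whole when multiplied by a number of 10 or less. This number, the denominator, was 2 at 58.3% of shared-tag sites, 3 at 16.8%, 4 at 8.63%, 5 at 5.09%, 6 to 10 at 9.62% and above 10 at 1.59%. The site nearest to the threshold of the rule lay 0.05 from a whole number, and the whole-tag sites lay exactly at one. The fraction was on 1 flank at 24980 sites and on both at 10582. It was seen in 1 library at 9155 sites, in 2 at 11180, in 3 at 9189 and in all 4 at 6038, and an MspI library held it at 30707 of the 35562. A further 316 sites of the same spacing had fractional flanks that added up to whole sums, and these stayed among the whole-tag sites. Divided tags can also give whole numbers on both flanks, so other whole-tag sites may hold shared tags that left no fraction. How many do was not tested.

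The positions that shared a tag could be found from the values alone, since copies receive the same numbers in all 4 libraries. Among 17001 shared flanks with at least 10 MspI tags and a denominator of 2 to 10, 47.2% had exactly as many positions with the same 4 values as their denominator, 20.8% had 1 position more, and 10.3% had no other position. The share with exactly as many positions was between 46.2% and 62.5% at denominators 2, 3, 4, 5, 7 and 8, but 22.2% at denominator 6, 32.7% at 9 and 16.5% at 10. A denominator such as 6 or 10 can combine unlike fractions of different libraries. At denominator 6, 232 flanks had 6 positions with equal values, 223 had 3 and 146 had 2. The denominator alone thus does not give the number of positions with equal values. Equal values at low counts can also arise by coincidence, and positions where shared and unshared tags add up are missed, so these are matches of values and not of sequences.

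**Figure D1:**
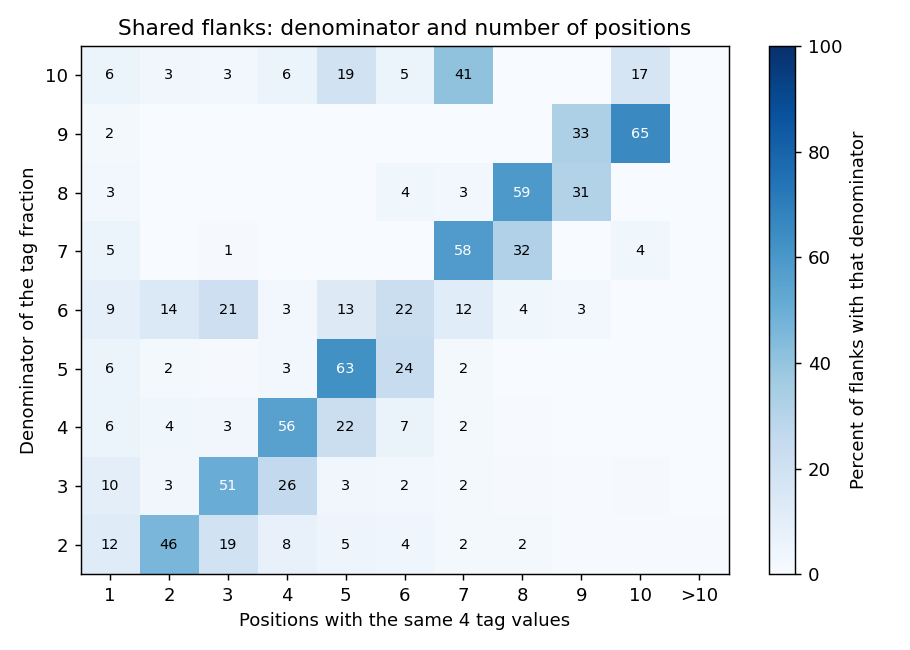
Shared flanks with at least 10 MspI tags, by the denominator of their tag fraction (vertical axis) and the number of positions holding the same values in all 4 libraries (horizontal axis, 1 meaning the flank alone). Numbers and colour give the percent of the flanks with that denominator. The diagonal, where both numbers are equal, holds 46.2% of the flanks at denominator 2 and 62.5% at denominator 5, but 22.2% at 6, 32.7% at 9 and 16.5% at 10.

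Some of these copies were near each other and some were not. Of 3469 sets of flanks whose size equalled the denominator, 22.6% lay within 100 kb, with a median span of 25934 bp, and 21.9% lay within 1 Mb. A further 11.7% were on 1 chromosome but wider, and 43.8% were spread over several chromosomes. In sets within 100 kb, all flanks pointed the same way in 80.5%, the arrangement of head-to-tail copies, against 49.1% of sets within 1 Mb and 35.1% of the wider ones. Pairs alone can be compared without the effect of set size. Of 2496 pairs, 54.2% were on 1 chromosome at a median distance of 107726 bp. The orientation was the same in 63.2% of those pairs, against 50.0% of pairs on different chromosomes. With a minimum of 50 MspI tags, which leaves fewer coincidences, 49.8% of sets were spread over several chromosomes and the share within 100 kb was 11.4%. Pairs on 1 chromosome then made up 42.3%, with the same orientation in 57.4%. The closeness of copies thus depends on the minimum.

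Shared-tag sites were unevenly placed. They made up 5.05% of sites of this spacing on chromosome 17, 4.97% on chromosome 12 and 4.74% on chromosome 7, against 1.80% on chromosome 18, the lowest of the 19 autosomes. They were 2.66% of isolated sites, those with no other CCGG in the window, and 2.69%, 3.34% and 4.08% of sites with 2, 3 and 4 CCGG. Joined across gaps of at most 5 kb they formed 19814 runs. A single site was its own run 13824 times, which is 38.9% of the shared-tag sites, and 241 runs of 10 or more sites held 13.3% of them.

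The rule itself favours sites with many tags, because a site without tags cannot hold a fraction. The median number of tags in the 2 MspI libraries together was 13.25 at shared-tag sites and 8 at whole-tag sites before weighting, and 1.15% of shared-tag sites against 23.8% of whole-tag sites had no MspI tag. Shared-tag sites held 4.54% of tags in the Emerald-high HpaII library and 12.8% in the Emerald-high MspI library, against 3.68% and 12.3% in the Emerald-negative HpaII and MspI libraries. Most of the MspI share came from a few positions. After removal of the most tagged 0.1% of all sites by MspI (1617 sites with 90 or more, of which 648 were shared-tag sites), the shares of HpaII and MspI tags were 2.53% and 3.21% in the Emerald-high and 2.21% and 3.25% in the Emerald-negative fraction.

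The main measure was the log2 ratio of HpaII to MspI tags, each scaled to its library total, in Emerald-high cells minus the same in Emerald-negative cells. Above 0, HpaII cut relatively more often in Emerald-high cells. Over all shared-tag sites it was 0.25 (95% Poisson interval 0.243 to 0.259), against 0.24 at whole-tag sites. The levels behind it were -1.50 in the Emerald-high and -1.75 in the Emerald-negative fraction at shared-tag sites, against -0.18 (Emerald-high) and -0.42 (Emerald-negative) at whole-tag sites. A pile-up on chromosome 2 sets these shared-tag levels. Without the 0.1% most tagged sites the levels were -0.34 in the Emerald-high and -0.56 in the Emerald-negative fraction, against -0.30 (Emerald-high) and -0.55 (Emerald-negative) at whole-tag sites, and the difference was 0.21 (0.201 to 0.225) against 0.25. The shared-tag value minus the whole-tag value was thus 0.013 (0.0025 to 0.023) with those positions and -0.038 (-0.050 to -0.025) without them. What follows leaves them out unless it says otherwise. The intervals cover counting error only, the tags carry no molecular identifiers, and copies that share tags are not independent.

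The spacing of CCGG separated the shared-tag sites. Isolated sites had a log2 difference of 0.40 (0.378 to 0.416), sites with 2 CCGG 0.22 (0.197 to 0.241), sites with 3 CCGG 0.03 (0.003 to 0.059) and sites with 4 CCGG -0.10 (-0.138 to -0.068). Whole-tag sites went the same way but further apart, with 0.53, 0.26, 0.03 and -0.14. At isolated sites the shared-tag value was lower than the whole-tag value by more than counting error, with a difference of -0.13 (-0.149 to -0.109). At 2 CCGG the gap was -0.04 (-0.060 to -0.014), and at 3 CCGG it was within counting error, at -0.004 (-0.033 to 0.025). At 4 CCGG it was 0.04 (0.001 to 0.073), which does not hold when 1 site is kept from each set of equal sums, where it was -0.01 (-0.053 to 0.031). The HpaII libraries alone gave 0.30, 0.21, 0.11 and -0.02 for 1 to 4 CCGG at shared-tag sites, while the MspI libraries gave -0.10, -0.01, 0.08 and 0.09. At whole-tag sites HpaII gave 0.40, 0.26, 0.10 and -0.05, and MspI -0.12, 0.004, 0.06 and 0.09. The MspI difference, which does not depend on methylation, thus makes up part of each value. Scaling to dense sites in place of library totals adds 0.72 to every difference and turns the value at 4 CCGG to 0.62. The sign of a difference thus depends on the scaling, while the order of the spacings and the gap to whole-tag sites do not, because the scaling cancels in them.

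The levels were also closer together at shared-tag sites. In Emerald-high cells the log2 HpaII/MspI level was -0.34, -0.41, -0.39 and -0.13 at shared-tag sites with 1 to 4 CCGG, against -0.41, -0.44, -0.22 and 0.20 at whole-tag sites. In Emerald-negative cells it was -0.74, -0.63, -0.42 and -0.03 at shared-tag sites, against -0.93, -0.69, -0.25 and 0.34 at whole-tag sites. In pooled tags, shared-tag sites were therefore cut relatively more than whole-tag sites where CCGG was isolated, and less where 3 or 4 lay together. The median site scores, which are angles of 0 to 100 that rise with HpaII cutting, showed the second part only at 4 CCGG in Emerald-high cells. The other medians at 3 and 4 CCGG were higher at shared-tag sites. At 3 CCGG they were 24.4 (Emerald-high) and 16.8 (Emerald-negative) at shared-tag sites, against 23.2 (Emerald-high) and 13.1 (Emerald-negative) at whole-tag sites. At 4 CCGG they were 25.5 (Emerald-high) and 17.9 (Emerald-negative), against 27.4 (Emerald-high) and 17.8 (Emerald-negative). Just outside the rule, at the 2222 fractional sites with 5 CCGG, the difference was -0.23 against -0.31 at whole-tag sites.

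**Figure D2:**
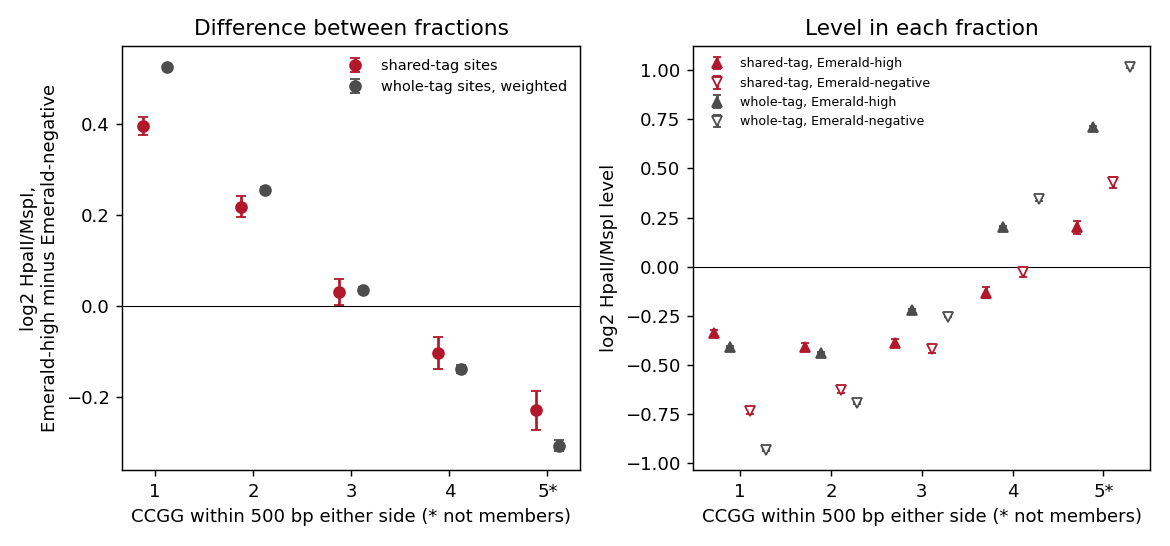
Left, log2 HpaII/MspI in Emerald-high minus Emerald-negative cells by the number of CCGG within 500 bp either side, for shared-tag sites and weighted whole-tag sites, without the 0.1% most tagged sites; right, the levels behind it in each cell fraction. Bars are 95% Poisson intervals, and 5 CCGG lies outside the rule. At 1 CCGG shared-tag sites sit at 0.40 and whole-tag sites at 0.53.

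The gap at isolated sites was also present on the flank that held no fraction. Such a flank is called whole here, but divided tags can also give whole numbers, so it may still be shared. At 10179 isolated sites with a fraction on 1 flank, the flank with whole tags in all 4 libraries had a difference of 0.36 (0.316 to 0.400), against 0.53 on flanks of isolated whole-tag sites weighted by their own MspI tags. The gap was -0.17 (-0.214 to -0.130). On the shared flank of the same sites the difference was 0.41 (0.381 to 0.440), against 0.52, and the gap was -0.11 (-0.141 to -0.081). With 4 CCGG in the window, the gap was 0.08 (0.009 to 0.150) on the whole flank and 0.06 (0.007 to 0.116) on the shared flank. The whole flank did not enter the choice of these sites through a fraction of its own. At 1970 sites of 1 to 4 CCGG with at least 10 MspI tags on each flank, the shared flank gave 0.26 (0.218 to 0.312) and the whole flank 0.31 (0.262 to 0.361), which do not differ beyond counting error. Across sites with at least 5 tags in each MspI library on each flank, the scores of the shared and the whole flank had a Spearman correlation of 0.42 in the Emerald-high and 0.45 in the Emerald-negative fraction (1280 shared-tag sites), against 0.48 (Emerald-high) and 0.60 (Emerald-negative) between the flanks of whole-tag sites (44670). The flanks share a cut, a library and its depth, and these values are descriptions.

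The gap at isolated sites was seen across the genome. It was below 0 on 18 of 19 autosomes, with a mean of -0.12 ± 0.09 (SD over 19 autosomes of the same libraries), from -0.30 on chromosome 18 to 0.02 on chromosome 12. The difference itself averaged 0.40 ± 0.08 at isolated shared-tag sites and 0.53 ± 0.03 at isolated whole-tag sites, and was above 0 on all 19. Over 1 to 4 CCGG together the gap was below 0 on 13 of 19 autosomes, with a mean of -0.04 ± 0.07. Copies spread over several chromosomes put the same divided tags on more than 1 autosome, so the autosomes are not separate data.

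**Figure D3:**
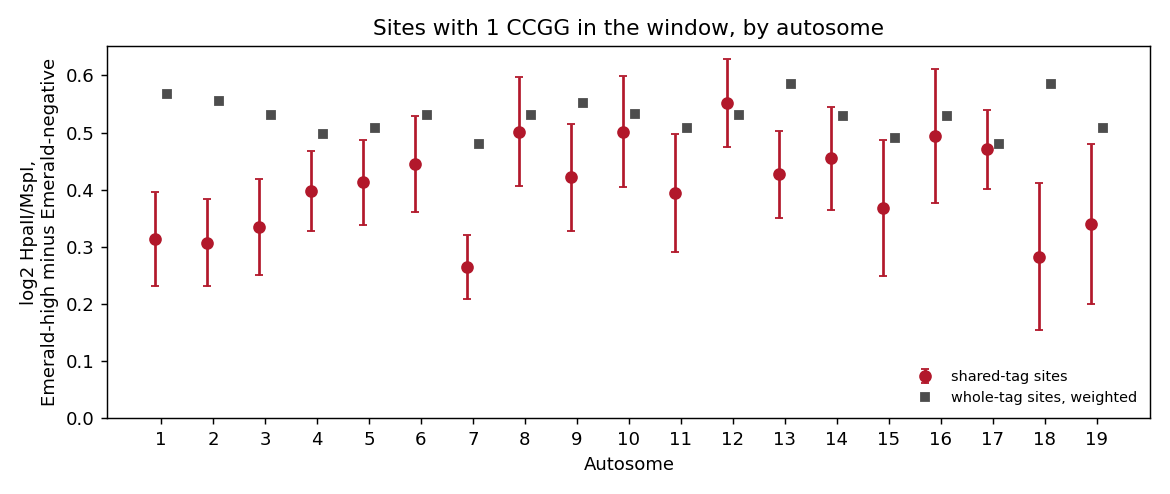
Log2 HpaII/MspI in Emerald-high minus Emerald-negative cells at isolated sites, by autosome, for shared-tag sites (circles, with 95% Poisson intervals) and weighted whole-tag sites (squares). Shared-tag sites lie lower on 18 of the 19 autosomes, and chromosome 12 is the exception.

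The difference was also taken by denominator. Denominators come from the fractional tags of all 4 libraries, HpaII included, so these values describe classes chosen in part by the readout. Shared-tag sites of denominator 2 had 0.24 (0.228 to 0.260), against 0.25 at whole-tag sites weighted to them, and those of denominator 3 had 0.23 against 0.25. At denominators 4 to 5 the difference was 0.16 (0.125 to 0.190) against 0.26, at 6 to 10 it was 0.12 (0.088 to 0.161) against 0.24, and above 10 it was 0.07 (-0.009 to 0.147) against 0.30. The Emerald-negative level stood at -0.61 at denominator 2, against -0.54 at whole-tag sites, and at -0.36 at denominators 6 to 10, against -0.55. Sites with a fraction in all 4 libraries, which need HpaII tags to qualify, had 0.12 (0.092 to 0.144) against 0.28. The 30119 sites with a fraction in an MspI library had 0.21 (0.202 to 0.228) against 0.25, and among them the isolated sites had 0.39 against 0.53. Keeping 1 site from each set with equal sums gave 0.38 at isolated sites, against 0.54.

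Where the copies lay made less difference. Sites in sets within 100 kb had 0.26 (0.213 to 0.305) against 0.29 at whole-tag sites, those within 1 Mb 0.34 (0.299 to 0.389) against 0.36, those wider on the same chromosome 0.34 (0.277 to 0.396) against 0.35, and those on several chromosomes 0.23 (0.198 to 0.262) against 0.27. The gap to whole-tag sites passed counting error only for sets on several chromosomes, at -0.04 (-0.070 to -0.006). The gaps of the 4 layouts were not tested against each other.

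Site by site, cutting was scored as an angle, 100 × (2/π) × arctan(HpaII/MspI) on scaled tags, which is 0 without HpaII tags and 50 where both are equal. It was computed for sites with at least 10 tags in each MspI library, 8999 shared-tag sites without the most tagged. Their median score was 27.6 in the Emerald-high and 17.6 in the Emerald-negative fraction, against 24.98 (Emerald-high) and 12.8 (Emerald-negative) at whole-tag sites. Over all spacings together, low and high scores were both less common at shared-tag sites. Scores under 20 made up 36.9% in the Emerald-high and 53.8% in the Emerald-negative fraction, against 42.0% (Emerald-high) and 61.1% (Emerald-negative). Scores over 80 made up 2.99% (Emerald-high) and 3.19% (Emerald-negative), against 3.85% (Emerald-high) and 4.41% (Emerald-negative). At isolated sites the high scores went the other way, with 2.57% (Emerald-high) and 2.48% (Emerald-negative) over 80, against 2.37% (Emerald-high) and 2.04% (Emerald-negative). No HpaII tag at all was found at 3.32% of shared-tag sites in the Emerald-high and 5.57% in the Emerald-negative fraction, against 9.83% (Emerald-high) and 16.1% (Emerald-negative) of whole-tag sites. A site that receives part of the tags of its copies reaches 0 only when all of them do. The rule also admitted 4855 sites by an HpaII fraction only, and such sites cannot be without HpaII tags in that library. This last contrast is thus not free of the sharing or of the rule. With a fraction in 1 library it was 7.77% (Emerald-high) and 11.5% (Emerald-negative), against 10.0% (Emerald-high) and 16.3% (Emerald-negative). Whether sharing or the rule also shifts the medians, the low and high scores or the pooled levels was not tested. The Emerald-negative median was higher at shared-tag than at whole-tag sites on 18 of 19 autosomes. The score was higher in Emerald-high than in Emerald-negative cells at 70.7% of shared-tag sites and at 68.1% of whole-tag sites.

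**Figure D4:**
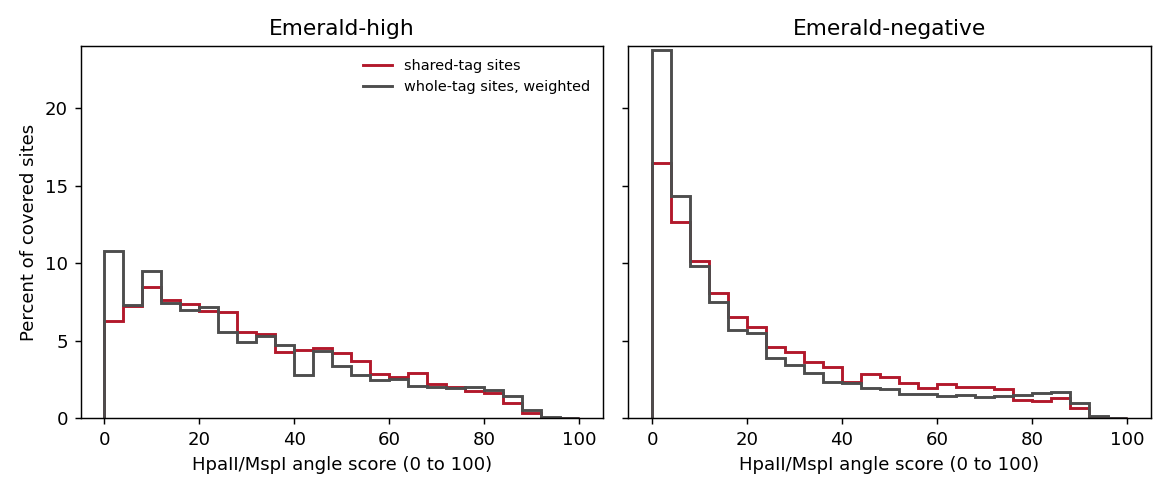
Share of covered sites by HpaII/MspI angle score in Emerald-high (left) and Emerald-negative cells (right), for shared-tag sites and weighted whole-tag sites. Whole-tag sites hold more of the lowest scores, and the medians of shared-tag sites are 27.6 in the Emerald-high and 17.6 in the Emerald-negative fraction.

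The difference between the cell fractions varied with the starting level in Emerald-negative cells, and the gap to whole-tag sites was widest where that level was low. To keep the sorting apart from the measurement, sites were sorted by the Emerald-negative score of 1 flank and the other flank gave the difference. At isolated sites with a score under 20, it was 0.72 (0.656 to 0.781) at shared-tag sites against 1.06 at whole-tag sites. With 2, 3 and 4 CCGG it was 0.52, 0.37 and 0.30 at shared-tag sites, against 0.84, 0.71 and 0.59 at whole-tag sites. Above a score of 20 the gap was not in 1 direction. At isolated sites the values were 0.48 against 0.62 for scores of 20 to 50, 0.19 against 0.25 for scores of 50 to 80, and 0.15 (-0.019 to 0.310) against 0.002 for scores over 80. With 2 CCGG and scores of 50 to 80, shared-tag sites had 0.11 against 0.05. With 4 CCGG they had 0.26 against 0.18 for scores of 20 to 50, and 0.03 against -0.23 for scores of 50 to 80. Over 1 to 4 CCGG, the flanks sorted under 20 had an Emerald-negative level of -1.80 at shared-tag sites and -2.27 at whole-tag sites, so the sorted groups did not start from the same level. In this sorting the whole-tag sites were not weighted by tags.

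**Figure D5:**
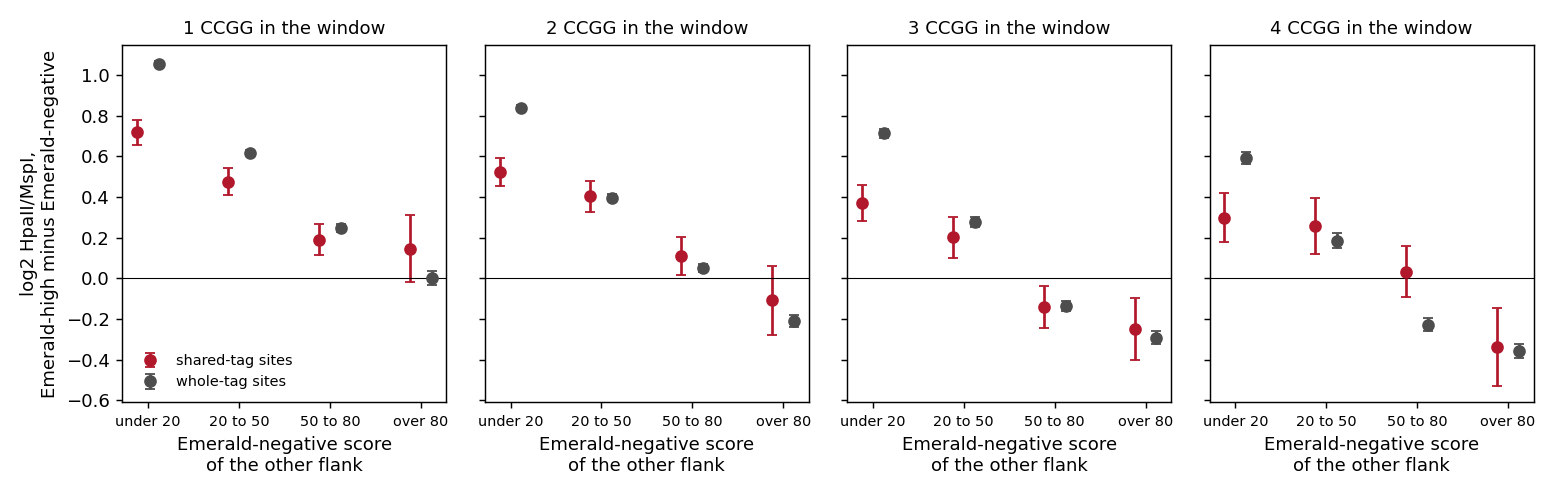
Log2 HpaII/MspI in Emerald-high minus Emerald-negative cells on 1 flank, by the Emerald-negative score of the other flank and by the number of CCGG in the window. That score used the MspI tags of both fractions. Bars are 95% Poisson intervals. Under a score of 20 the shared-tag sites lie lower at every spacing, 0.72 against 1.06 at isolated sites.

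Each site's HpaII and MspI tags in both fractions, the most tagged sites included, entered Fisher's exact test (two-sided), with Benjamini-Hochberg adjustment over all 218697 sites with enough MspI tags. A call needed an adjusted p under 0.05 and a 2-fold change. The test compares the libraries and not the conditions. Of 9647 shared-tag sites tested, 43 were higher in Emerald-high cells (0.446%, background over all sites 0.102%) and 11 were lower (0.114%, background 0.0297%). Of the 43, 41 were among the most tagged sites, as were all 11. Divided tags entered the test rounded to whole numbers. Without those, 2 of 8999 shared-tag sites were higher (0.0222%), against 157 of 186607 whole-tag sites (0.0841%), and 0 against 3 were lower. At an unadjusted p under 0.05, 534 of those shared-tag sites were higher and 50 lower, which is 5.93% and 0.556%, against 7.64% and 0.810% over all sites without the most tagged. Whole-tag sites without the most tagged had 8.29% higher and 0.517% lower. Copies recur among the calls, as the 43 sites had 24 different sets of tag sums. Other calls had sums close in all 4 libraries without being equal, so separate observations may be fewer. Examples are chr7:55229864 and chr18:37275983, with 63.3 and 61.3 HpaII tags in Emerald-high cells. Among the 11, chr9:118584213 and chr13:9833714 had 260.5 and 264.5. Of the 43, 27 were isolated and 21 were on chromosome 8, with 11 between chr8:19711658-19976705 and 9 between chr8:71948341-74352412. Among all 35562 shared-tag sites, 42.5% were isolated and 1415 lay on chromosome 8. The chromosome 8 counts hold the same divided tags more than once. The sums at chr8:19757197 were found at 6 sites and those at chr8:19753321 at 4, in both stretches. The scores of the 43 had a median of 27.8 in the Emerald-high and 12.4 in the Emerald-negative fraction, while those of the 11 were between 73.9 and 87.6 in the Emerald-high and between 88.1 and 95.4 in the Emerald-negative fraction. None of the 11 was isolated, and 6 had 4 CCGG in the window, a number that 10.1% of all shared-tag sites had.

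Among called sites whose MspI libraries differed by at most 0.5 on the log2 scale, 33 were higher and 3 lower. The largest rise was at a pair of sites with equal sums on different chromosomes, chr1:161026290 and chr3:48444711. Each had 27.5 HpaII and 41 MspI tags in Emerald-high cells, against 10.5 and 52 in Emerald-negative cells, a log2 difference of 2.41 (SE 0.59, adjusted p = 0.0143 by the exact test). The site at chr16:85289249 had 25.5 and 40 tags in Emerald-high cells, against 10.5 and 48 in Emerald-negative cells. Its log2 difference was 2.22 (SE 0.59) and its adjusted p 0.0409 in the exact test. These 3 sites had HpaII tags at about the MspI level in Emerald-high cells and far below it in Emerald-negative cells.

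Of these named sites the one with the most tags was chr10:21862580, with 723.5 HpaII and 2942 MspI tags in Emerald-high cells, against 302 and 2655.5 in Emerald-negative cells. Its log2 difference was 1.87 (SE 0.11, adjusted p = 1.17e-71 by the exact test), and its scores were 24.6 in the Emerald-high and 7.04 in the Emerald-negative fraction. On chromosome 8, the sites at 19711658, 19976705 and 72064902 held the same sums, with a denominator of 3. Their log2 difference was 1.79 (SE 0.41, adjusted p = 0.0146 by the exact test), from 36.3 HpaII and 164 MspI tags in Emerald-high cells against 22.3 and 208 in Emerald-negative cells. They count as 1 observation, although the last lies far from the others on the chromosome. The site at chr8:19753321, with sums found at 4 sites, had 117 HpaII and 267 MspI tags in Emerald-high cells, against 71.5 and 331 in Emerald-negative cells, a difference of 1.77 (SE 0.25). The 3 falls lay on different chromosomes and were nearly alike. The site at chr6:109455153 had 402 HpaII and 273 MspI tags in Emerald-high cells, against 1177 and 209.5 in Emerald-negative cells, a log2 difference of -1.17 (SE 0.16). In the same order, the site at chr10:104675556 had 392, 264, 1160 and 205.5 tags and a difference of -1.16. The site at chr13:44965001 had 408, 278, 1180 and 217.5 tags and a difference of -1.12. With sums so close in all 4 libraries, the 3 falls may not be separate observations. Whether they share tags was not tested. At all 3 the MspI libraries differed too, by 0.34 to 0.37 (log2), being higher in Emerald-high cells. All 3 had 4 CCGG in the window and scores of 75.1 to 75.4 in Emerald-high and 88.1 to 88.6 in Emerald-negative cells.

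Runs of shared-tag sites, the most tagged included, showed whole blocks of copies. The 5 runs with the most sites lay on chromosome 17, between 6222535 and 7601760. The longest, at chr17:6410199-6522776, held 102 shared-tag sites among 154, with a log2 difference of 0.26 (0.077 to 0.443). The runs at chr17:6578355-6673517 and chr17:6784529-6878719 each held 91, and all 91 sets of sums in one were found in the other, so their shared value of 0.16 (-0.043 to 0.365) is 1 measurement. The run at chr17:6222535-6311878, with 76 sites, shared 71 sets of sums with the longest run and had 0.44 (0.212 to 0.673). The run at chr17:7505374-7601760, with 66 sites, had 0.36 (-0.015 to 0.737). The scores of these runs were between 23.6 and 50.8 in the Emerald-high and between 18.7 and 47.2 in the Emerald-negative fraction. The intervals of all 5 overlap.

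The sixth, at chr2:83795057-83833399, was a tandem array read site by site. All 55 of its CCGG sites were shared-tag sites, and all 94 spacings between flanks with equal values were 5810 bp, giving 7 units. The median denominator was 7, every site had the same sums in all its units, and some flanks had a further position with the same values in the opposite orientation well outside the array, near chr2:77770777. The run as a whole had a log2 difference of 0.26 (0.018 to 0.505). The sites of a unit fell into groups of unlike scores. The first 3 sites, within 203 bp, had scores of 48.8, 62.6 and 61.0 in the Emerald-high and 28.8, 67.4 and 58.5 in the Emerald-negative fraction. The next 3, between 865 and 940 bp into the unit, had scores of 13.3, 10.2 and 13.2 in the Emerald-high and 0.956, 2.81 and 3.13 in the Emerald-negative fraction. The Emerald-negative scores of these 3 rest on 0.143, 1.14 and 0.929 HpaII tags per unit on average, which is near the floor. Each of these 6 sites had 3 CCGG in its window. At the middle one of the second group a unit received on average 3.29 HpaII and 33.7 MspI tags in Emerald-high cells, against 1.14 and 25.3 in Emerald-negative cells. At the second site of the first group a unit received 18.3 and 20.1 tags in Emerald-high cells, against 29.1 and 16 in Emerald-negative cells. The last 2 sites of the unit, both isolated, had scores of 10.1 and 15.3 in the Emerald-high and 11.6 and 5.996 in the Emerald-negative fraction. All 3 scores of the rarely cut group were higher in Emerald-high cells, while in the cut group the first and the third were higher and the second lower. These are values without a test.

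Of the runs with the most MspI tags, the first was the pile-up at chr2:98502951-98506660. Its 4 shared-tag sites took 8.63% of the Emerald-high MspI tags and 8.15% of the Emerald-negative MspI tags, but 0.745% of the Emerald-high HpaII and 0.296% of the Emerald-negative HpaII tags. Its scores were 5.49 in the Emerald-high and 2.31 in the Emerald-negative fraction, and its log2 difference was 1.25 (1.227 to 1.272). It was thus nearly uncut by HpaII in both fractions, and it alone outweighed all other shared-tag sites in the pooled levels. The run at chr2:22444219-22444768 was the opposite, mostly cut in both fractions, with scores of 84.5 in the Emerald-high and 85.6 in the Emerald-negative fraction and a difference of -0.11 (-0.177 to -0.049). The run at chr10:21859942-21873207, which holds the rise described above, had 1.56 (1.370 to 1.743). On chromosome 8 the runs at 19955567-19982500 and 19705524-19725950 had 0.34 (0.236 to 0.450) and 0.33 (0.207 to 0.452), while the run at 19753321-19761783, next to the second of these, had 1.11 (0.921 to 1.303). The interval of this last run did not overlap those of the other chromosome 8 runs. Equal values were found outside the run for 12 of 15 sites at 19955567-19982500 and 10 of 10 at 19705524-19725950. At 19753321-19761783 this held for 2 of 3. These values thus cannot be assigned to 1 block, and 0.34 and 0.33 are not separate measurements.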

How the data were processed

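Per the labels, DNA of sorted MC1-ZE7 cells was cut with HpaII or MspI, and tags beside the cuts were sequenced. Per the file headers, each deposited file holds, for every CCGG position, estimated counts of tags in 2 parts, taken here as the flanks, and their sum. Positions are on mm9, the build in the submitters' processing notes. The sources used here give neither the aligner nor the tag length nor the treatment of multiple matches. No mm9 genome or annotation was used, so no sequences or genes are named.

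Tags were scaled to library totals. Whole-tag sites were weighted in strata of CCGG number and pooled MspI tags, with upper bounds of 0, 1, 2, 5, 10, 20, 50 and 100. Denominators were the smallest number making the values of a flank whole in all 4 libraries. The larger of the 2 flanks was taken for a site. For the exact test, counts were rounded, the null odds ratio came from the totals, and a pseudocount of 1 was used in the 2-fold limit. Scripts used numba 0.67.0, scipy 1.17.1 and pandas 2.3.3 on Python 3.11.15, and were tested on simulated data.

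The named sites were up to 8 called rises and 8 called falls of largest change with MspI libraries within 0.5 (log2), and the named runs the 6 with most sites and the 6 with most MspI tags. The sites, lists and tests were chosen with earlier results of these data known. Alternatives covered the membership rule, scaling, coverage, weighting, flanks, pseudocounts and overdispersion.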

Additional observations from a re-analysis of the deposited data

Results flagged for a closer look

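At isolated shared-tag sites the enzymes changed in opposite senses from one fraction to the other. HpaII was 0.30 higher and MspI 0.10 lower in Emerald-high than in Emerald-negative cells on the log2 scale, which together give the difference of 0.397. Isolated whole-tag sites had the same, with HpaII 0.40 higher and MspI 0.12 lower. The same held at sites with 2 CCGG in the window, where HpaII was 0.21 higher and MspI 0.01 lower, for a difference of 0.219. With 1 library for each combination the opposite movement was not tested.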

How the results depend on the processing

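No paired analysis was possible because each combination of cell fraction and enzyme has 1 library. Of 103 values recomputed under other settings, 41 stayed within counting error (for calls, within 1.5 times), 56 moved and 6 turned round. Unlike most results above, the values in this section include the most tagged sites, unless the setting leaves them out. The 6 are all the shared-tag value minus the whole-tag value, 0.013 as reported. It was -0.038 without the 0.1% most tagged sites, -0.065 with whole-tag sites matched on Emerald-negative MspI tags, -0.035 on the second flank only, -0.16 as a mean over covered sites with a pseudocount of 1 and -0.20 with one of 0.5, and -0.066 without the 3 most tagged shared-tag sites, the last chosen after seeing the data.

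Without the 0.1% most tagged sites the difference was 0.21 at shared-tag and 0.25 at whole-tag sites, the levels -0.34 in the Emerald-high and -0.56 in the Emerald-negative fraction, and 2 sites were called higher and 0 lower. Without the 3 most tagged shared-tag sites the difference was 0.17 and the levels -0.14 (Emerald-high) and -0.31 (Emerald-negative). With a fraction required in an MspI library the difference was 0.27, the gap 0.028 and the levels -1.62 (Emerald-high) and -1.89 (Emerald-negative). With one required in all 4 libraries the differences were 0.29 at shared-tag and 0.25 at whole-tag sites, the gap 0.038, the levels -1.85 (Emerald-high) and -2.14 (Emerald-negative), the median scores 33.3 (Emerald-high) and 21.996 (Emerald-negative), and the calls 15 higher and 3 lower. Both gaps turn round without the most tagged sites. They were then -0.036 with a fraction in an MspI library and -0.16 with one in all 4. Scaling to autosomal whole-tag sites gave levels of -1.62 (Emerald-high) and -1.87 (Emerald-negative) and median scores of 26.1 (Emerald-high) and 16.6 (Emerald-negative). Scaling to dense sites, those with at least 10 CCGG in the window, gave differences of 0.97 at shared-tag and 0.96 at whole-tag sites, levels of -3.24 (Emerald-high) and -4.22 (Emerald-negative), median scores of 8.90 (Emerald-high) and 3.33 (Emerald-negative), and 604 sites higher and 0 lower. A coverage minimum of 20 gave median scores of 29.6 (Emerald-high) and 19.2 (Emerald-negative) and 70 sites higher.

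Whole-tag sites had 0.32 when matched on Emerald-negative MspI tags and 0.22, a gap of 0.027, when matched on CCGG number only. The first flank only gave 0.30 at shared-tag and 0.23 at whole-tag sites, a gap of 0.069, and the second 0.21 at shared-tag and 0.25 at whole-tag sites. Means over covered sites were 0.65 at shared-tag and 0.82 at whole-tag sites with a pseudocount of 1, and 0.68 at shared-tag and 0.87 at whole-tag sites with 0.5. Counts divided by the overdispersion of 1.38 between the MspI libraries left 26 sites higher, and the adjusted p alone gave 24 lower. HpaII libraries alone gave 0.30. Keeping 1 site per set of equal sums, chosen after seeing the data, gave levels of -1.75 (Emerald-high) and -1.99 (Emerald-negative), an Emerald-negative median score of 18.7 and 24 sites higher. A tolerance of 0.01 in the rule held the same 35562 sites. Among calls at shared-tag sites, 41 of 43 higher and all 11 lower were among the most tagged. Of 175 higher calls at whole-tag sites, 157 were not. Whether depth accounts for this was not tested. The flank, denominator, layout and starting-level comparisons were chosen after seeing the data.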
